A study of Mus musculus with 10 samples.

Results

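Epicardium-derived cells (EPDC) were compared with the E11.5 epicardium of the mouse heart by ATAC-seq, using 7 of the 10 samples of the study and 6 of its 9 peak lists. The other 3 lists, from E17.5 epicardium, entered no test but define the stretches described below and are printed beside the named genes. The 3 EPDC lists, 1 from E12.5 and 2 from E13.5 (samples 1 and 2), were set against the 3 E11.5 lists on chromosomes 1 to 19 of mm10. For each of 20807 protein-coding genes, it was asked whether a peak was called within 1000 bp of the transcription start site (TSS) and how many peak summits lay within 25 kb of the gene body. All 3 groups came from Rosa26tdTomato;Wt1CreERT2/+ embryos on a C57BL/6J background, given tamoxifen by oral gavage at E9.5. The red reporter therefore marks cells in which the Wt1 gene drove Cre at that stage, together with their descendants, and any cell without Wt1-driven Cre is missed. E11.5 and E17.5 epicardium were sorted as CD31- tdTomato+ PDPN+ cells and EPDC as CD31- tdTomato+ PDPN- cells, with 40000 to 50000 cells sorted per sample. Each sample pooled the hearts of littermates: 6 hearts per sample at E11.5, 4 to 13 at E13.5 and 4 at E17.5, with no number given for E12.5. E13.5 EPDC sample 2 was sequenced as 2 technical replicates that share 1 list and was counted once, leaving 3 lists per group. EPDC and E11.5 epicardium differ both in age and in the PDPN gate, and these cannot be told apart.

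The epicardium is the mesothelial sheet that covers the heart. Some of its cells lose their epithelial junctions, undergo epithelial-to-mesenchymal transition (EMT), enter the myocardium as EPDC, and give rise mainly to fibroblasts and to the mural cells of coronary vessels. CD31 is a surface protein of endothelium, and PDPN (podoplanin) is a mucin-like surface protein of the epicardium. In ATAC-seq a transposase cuts open chromatin, so that reads pile up over active promoters and cis-regulatory elements (CREs). A peak is an interval where the pile-up passes a statistical cut, and a summit is a local maximum inside it. The lists hold peaks and no reads, so an absent peak means that none was called, and closed chromatin cannot be told apart from low coverage. To compare the strength of peaks between lists, every interval was given its rank percentile by -log10 p within its own list, with 100 for the strongest interval and 0 where no peak was called.

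The E11.5 lists held 116734, 139483 and 134744 summits, and the EPDC lists held 99612, 104988 and 128705. The EPDC lists stood apart in where they called peaks. In 198 stretches of chromosomes 1 to 19, together 36.66 Mb long, none of the 6 epicardial lists (3 at E11.5 and 3 from PDPN+ cells at E17.5) held an interval, while every EPDC list held 3 or more summits. At chr6:114490932-114643364 the EPDC lists held 67, 62 and 64 summits and the epicardial lists held none. The reverse case, no EPDC interval and 3 or more summits in every epicardial list, gave 71 stretches of 5.74 Mb with at most 5 summits. Between EPDC and E11.5 alone, 264 stretches (43.63 Mb) had no E11.5 interval and 3 or more summits in every EPDC list, and 559 (64.11 Mb) had no EPDC interval and 3 or more summits in every E11.5 list, with at least 10 summits in every list at 35 and at 1 of them. The 198 and the 71 are called stretches here, and the windows of 898 genes touched one. The widest interval measured 11011 to 11163 bp in the EPDC lists and at most 3594 bp in the E11.5 lists. The counts of promoters called in EPDC alone and of genes with more or fewer summits are given with and without these stretches. The EPDC lists also held peaks on the mitochondrial chromosome and on unplaced scaffolds, and the epicardial lists held none. What separates the lists there was not tested, and a difference in alignment or filtering between the groups cannot be told apart from a difference between the cells.

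The sequences below are single examples at genes that the results name, and do not stand for their class. Each runs 5′ to 3′ on the strand of its gene in mm10 (RefSeq genome sequence), and capitals mark every CG dinucleotide. Ggct, called at high rank in EPDC alone, is shown over the 150 bases before its TSS (chr6:54992951-54993100, minus strand). Postn (chr3:54360959-54361108, plus strand) and Aspn (chr13:49544293-49544442, plus strand) are mesenchymal genes called in EPDC and later at E17.5. Upk3b (chr5:136038346-136038495, plus strand) is a mesothelial gene whose promoter lost rank in EPDC. For Cspg5 (chr9:110245671-110245821, plus strand) and Amotl1 (chr9:14646162-14646312, minus strand), both called at E11.5 alone, the 151 bases around the summit are shown, at 1963 bp and -1181 bp from the TSS. Summits inside untranslated regions (Hjurp, Gal3st2c and Fap) are not printed.
Ggct: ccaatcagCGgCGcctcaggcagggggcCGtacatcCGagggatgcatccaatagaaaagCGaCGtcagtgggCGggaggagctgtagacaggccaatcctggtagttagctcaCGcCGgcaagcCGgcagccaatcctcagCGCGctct
Postn: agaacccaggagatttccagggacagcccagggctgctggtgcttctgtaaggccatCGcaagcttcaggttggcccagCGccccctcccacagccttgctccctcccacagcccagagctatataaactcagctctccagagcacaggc
Aspn: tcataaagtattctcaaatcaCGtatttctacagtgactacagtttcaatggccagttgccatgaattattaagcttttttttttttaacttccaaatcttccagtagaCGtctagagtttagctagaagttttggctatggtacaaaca
Upk3b: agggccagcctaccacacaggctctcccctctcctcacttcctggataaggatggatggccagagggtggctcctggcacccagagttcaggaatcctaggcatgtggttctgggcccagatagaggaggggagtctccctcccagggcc
Cspg5: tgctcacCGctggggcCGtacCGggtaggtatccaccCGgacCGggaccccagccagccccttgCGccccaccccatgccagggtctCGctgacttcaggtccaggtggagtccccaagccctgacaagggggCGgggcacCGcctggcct
Amotl1: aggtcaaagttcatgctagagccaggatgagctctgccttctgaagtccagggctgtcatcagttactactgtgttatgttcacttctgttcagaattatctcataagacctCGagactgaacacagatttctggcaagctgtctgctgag

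The printed Ggct sequence holds 12 CG dinucleotides, against 9 in Cspg5, 2 in Postn, 2 in Aspn, 1 in Amotl1 and 0 in Upk3b. Over the 300 bases from 250 before to 50 after every TSS, the median promoter held 12 CG dinucleotides, and promoters called in all 6 lists held 19. Promoters called in EPDC alone and in no E17.5 list held 17, whereas those called in EPDC and at E17.5 held 3.5 and those called at E11.5 alone held 5. The letters TATAAA, read on both strands, occurred in 28.6% of the 28 promoters called in EPDC and at E17.5 and in 12.7% of all promoters. The GC box GGGCGG occurred in 54.6% of the EPDC promoters not called at E17.5, in 16.2% of those called at E11.5 alone and in 43.7% of all promoters. The AP-1 letters TGANTCA occurred in 11.6% of the promoters called at E11.5 alone, in 14.3% of the 28 promoters called in EPDC and at E17.5, and in 6.88% of all promoters. These shares describe letters in a window and not bound sites.

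EPDC and E11.5 epicardium called nearly the same promoters. A peak was called at 13268 promoters in all 6 lists and at 6047 in none. The number of promoters called per list was 14055 ± 201 (SD, n = 3) in EPDC and 13967 ± 48.8 (SD, n = 3) at E11.5. A two-sided exact permutation test gave p = 0.9, and with n = 3 per group it could give no p below 0.1. The difference in promoters called per library was 88 and turned in sign to -27.3 when E13.5 EPDC sample 2 was left out. With the same number of top intervals in every list it was 306, and the groups lay fully apart (exact permutation p = 0.1, the smallest possible). A total of 416 promoters were called in all 3 EPDC lists and in no E11.5 list, 2.0% of all promoters, and 173 the other way round, 0.831%.

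Most promoters called in EPDC alone lay in the stretches that the epicardial lists left empty, and many of them ranked near the top. The TSS of 261 of the 416 (62.7%) lay in such a stretch, and 155 lay outside. Since a stretch was defined by having no epicardial interval, a promoter inside it could hardly be called at E11.5, and this share is a description that follows in part from the definition. In all, 388 of the 416 were called in no E17.5 list either, whereas each E17.5 list called 64.5% to 66.2% of all promoters. The median rank percentile of the 416 in EPDC was 89.6, and 200 of them (48.1%) ranked at 90 or above. Ggct, an enzyme of glutathione turnover, ranked at 99.8, 99.8 and 99.9 in EPDC, and its promoter was called in no list at E11.5 or E17.5. The promoter shared by Hjurp, the chaperone that loads centromeric histone, and the cold-sensing channel gene Trpm8 ranked at 99.97, 99.97 and 99.98 from a single summit. Atp5g1, a subunit of mitochondrial ATP synthase, reached 99.6, 99.8 and 99.9, and the nuclear export receptor Xpo1 reached 99.9, 99.3 and 99.7. Both lay outside the stretches, as did Ggct. Dapk3, Derl1, Stard9, Dcakd and Nmt1 completed the 10 strongest, at 99.4 to 99.8, all with the TSS in a stretch. None of these 10 promoters was called in an epicardial list of either age. The wide gap between EPDC and E11.5 at each of them follows from how they were picked.

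**Figure D1:**
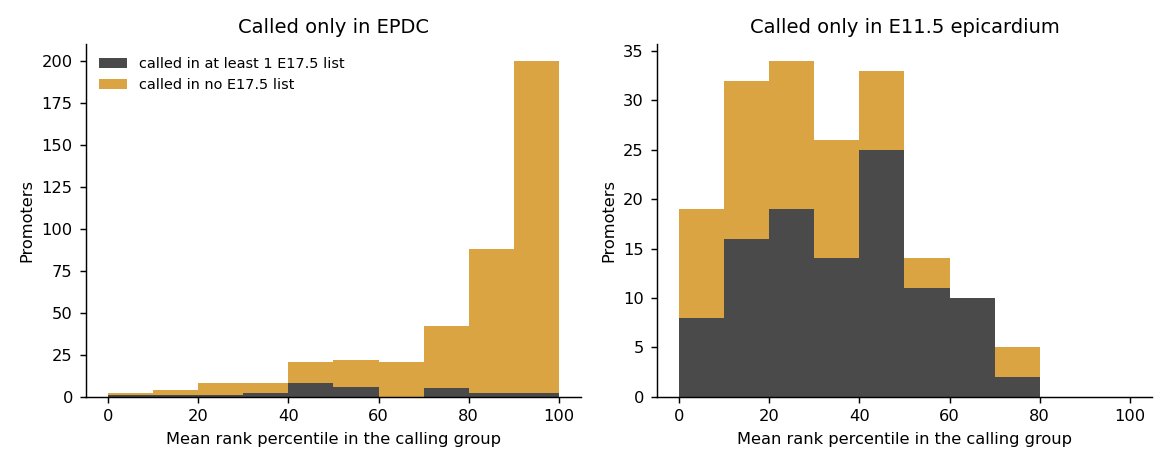
Number of promoters (y axis) by mean rank percentile (x axis, bins of 10) in the group that called them, for promoters called in EPDC alone (left) and at E11.5 alone (right), with the part called in at least 1 E17.5 list in dark grey and the rest in yellow. The left panel piles up at the top, with 200 of 416 promoters at 90 or above and nearly all of them in no E17.5 list, whereas the right panel has no promoter at 90 or above.

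The 28 promoters that were called in EPDC, in no E11.5 list, and in at least 1 E17.5 list had a median rank percentile of 51.3 in EPDC. They were of many kinds: Pdcl, Csnk2a1, Rasip1 and Hist1h2be were among the highest in rank, and the genes described next were picked after their values were seen. Postn encodes periostin, a matrix protein of activated fibroblasts and cushion mesenchyme, and its promoter ranked at 67.9, 75.9 and 78.9 in EPDC, at 0 in each E11.5 list and at 40.8, 45.1 and 39.2 at E17.5. The rank difference from E11.5 was 74.2 ± 4.1 percentiles (SE, limma adjusted p = 1.83e-05). Fap, a surface protease of activated fibroblasts, ranked at 28.6, 65.5 and 77.5 in EPDC and at 46.4, 17.2 and 21.5 at E17.5. Aspn, a small leucine-rich proteoglycan of matrix, ranked at 19.7, 61.0 and 72.7 in EPDC and at 23.9, 25.6 and 12.2 at E17.5. In both genes the E12.5 list was the lowest of the EPDC lists. That no E11.5 list called these promoters follows from the definition of the class. Kcne4, a potassium channel subunit of smooth muscle among other tissues, ranked at 66.2, 69.5 and 74.6 in EPDC and at 0, 10.99 and 19.8 at E17.5. Pi15, a secreted protease inhibitor, ranked at 7.7, 49.97 and 59.7 in EPDC, and its rank difference did not pass the test (adjusted p = 0.0869), and its window touches a stretch. The endothelial genes Rasip1 and Sele had EPDC ranks of 86.7, 90.2 and 89.1 for Rasip1 and of 32.5, 56.2 and 65.8 for Sele.

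The 173 promoters called at E11.5 alone were weaker, and 169 of them lay outside the stretches. Their median rank percentile at E11.5 was 30.5, none reached 90, and 105 were called again in at least 1 E17.5 list, 68 of these in all 3. Each E17.5 list called 64.5% to 66.2% of all promoters, so these counts do not mark the class out. Gal3st2c, a sulfotransferase gene, led at E11.5 with ranks of 73.7, 82.8 and 76.9, had none in any EPDC list, and ranked at 79.3, 82.6 and 85.4 in the E17.5 lists. Cspg5, which encodes a chondroitin sulfate proteoglycan, ranked at 80.4, 80.0 and 72.9, and Amotl1, an angiomotin family member of tight junctions, ranked at 76.1, 75.1 and 79.1, both with no peak at E17.5. At these 3 genes the summit itself lay over 1000 bp from the TSS, at 1116, 1963 and -1181 bp, and only the edge of the interval reached the promoter window. Sgk2, a kinase gene, ranked at 72.1, 69.7 and 58.9 in the E11.5 lists and at 69.9, 79.6 and 71.8 in the E17.5 lists. Foxs1, a forkhead factor of perivascular cells, ranked at 58.4, 62.9 and 68.8 and then at 53.9, 69.9 and 60.5. Clip4, Mllt11, Chst4, Tmem184a and Gh made up the rest of the 10 strongest. Without E13.5 EPDC sample 2, the list that called the most promoters, the class numbered 273.

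**Figure D2:**
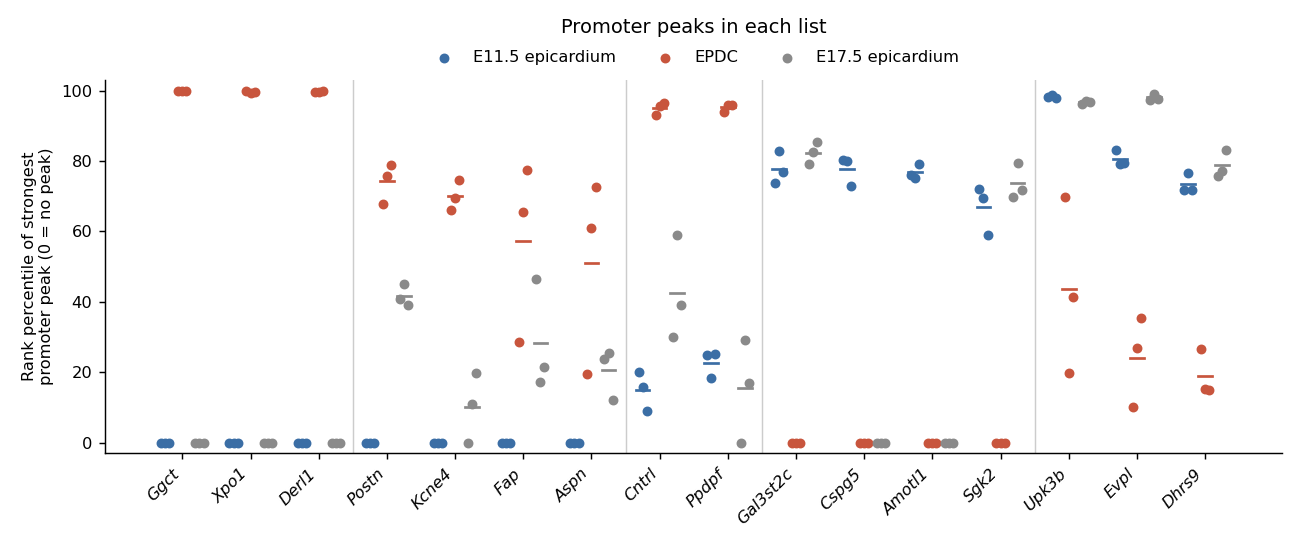
Rank percentile of the strongest peak within 1000 bp of the TSS (y axis, 0 where no peak was called) for named genes (x axis), with 1 point per peak list, blue for E11.5 epicardium, red for EPDC and grey for E17.5 epicardium, and short lines at the mean of each group. From left to right stand promoters called in EPDC alone, those called in EPDC and at E17.5, those ranked higher in EPDC, those called at E11.5 alone, and those ranked lower in EPDC. Upk3b, Evpl and Dhrs9, picked for their rank difference between E11.5 and EPDC, ranked high at E11.5, low in EPDC and high again at E17.5.

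Promoter rank gave a measure for the promoters that both groups called. Of 14760 promoters with a peak in at least 1 of the 6 lists, 785 ranked higher in EPDC (5.32%) and 1239 ranked lower (8.39%) by limma with Benjamini-Hochberg adjustment. With fold enrichment as the basis of the rank, the split turned to 1340 higher and 671 lower. With equal numbers of intervals it was 1399 and 941, so that no direction can be given to promoters as a whole. Among promoters called in all 6 lists, 354 ranked higher and 977 lower.

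Among promoters called in all 6 lists, 4 of the 5 with the largest loss of rank in EPDC ranked at 75.9 or above in every E17.5 list. They were picked for high ranks at E11.5 and low ranks in EPDC. The share of all promoters at such E17.5 ranks was not computed, so the count is a description of these genes only. Upk3b, a uroplakin that marks mesothelium, ranked at 98.3, 98.9 and 98.0 at E11.5, at 69.9, 19.7 and 41.3 in EPDC, and at 96.2, 97.1 and 96.7 at E17.5. Every EPDC list lay below every E11.5 list (difference -54.7 ± 11.2 percentiles, adjusted p = 0.0225), with the E12.5 list nearest to the epicardium. Leaving out any 1 of the E11.5 lists or E13.5 EPDC sample 2 ended this call (adjusted p up to 0.119). Evpl, which encodes the desmosome-linked envoplakin, ranked at 83.1, 79.1 and 79.4 at E11.5 and at 10.1, 26.8 and 35.4 in EPDC (adjusted p = 0.00145), with 97.4, 99.1 and 97.7 at E17.5. Dhrs9, a retinol dehydrogenase, ranked at 71.9, 76.5 and 71.7 at E11.5 and at 26.5, 15.3 and 15.1 in EPDC (adjusted p = 0.000201), with 75.9, 77.3 and 83.2 at E17.5. Syne4, a nuclear envelope protein, and Cyb5a, cytochrome b5, were the others, with differences of -54.9 and -67.5 percentiles (adjusted p = 0.00329 and 0.00055). The Syne4 and Upk3b calls were lost when the replicate number was added as a block (adjusted p = 0.0694 and 0.151). Among promoters called in all 6 lists the 5 largest gains were at Cntrl, Ppdpf, Tuft1, Mettl21e and Tle6, of which the window of Tle6 touches a stretch. Cntrl, a centrosomal protein, ranked at 20.1, 15.8 and 9.0 at E11.5, at 93.0, 95.5 and 96.6 in EPDC and at 29.9, 59.0 and 39.0 at E17.5. All 5, picked for low ranks at E11.5 and high ranks in EPDC, were at 59.0 or below in every E17.5 list, again without a share over all promoters.

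Summit numbers around genes changed in both directions. Of 16785 genes with a mean of 2 or more summits, 980 had more summits in EPDC and 980 had fewer (5.84% each) by limma on log2 summits per 100000 summits of the list. The stretches held the window of 340 genes with more summits (34.7%) and of 50 genes with fewer (5.10%). The stretches were chosen for peaks in 1 group alone, with 198 of the EPDC kind and 71 of the reverse, so that this split, and its change when they are left out, follow from how they were built. On the 16146 genes away from the stretches, 576 had more (3.57%) and 849 had fewer (5.26%). These counts depended on single lists. Genes with more summits numbered 583 without E13.5 EPDC sample 1, 612 without E11.5 replicate 2 and 644 without E11.5 replicate 1. Genes with fewer summits numbered 507, 531 and 528 without E11.5 replicate 1, 2 and 3, 630 without E13.5 EPDC sample 1, and 1489 without the E12.5 EPDC list.

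The 10 genes with the largest gain in summit number all lay in the stretches. The homeobox gene Cphx3 had 17, 18 and 26 summits in EPDC and 0 in every epicardial list, and the genes Pdzd7, Sfxn3 and Lzts2, neighbours on chromosome 19, had 12 to 16 each in EPDC and 0 at E11.5. A cluster of replication-dependent histone genes on chromosome 3 (Hist2h4, Hist2h2aa1, Hist2h2aa2, Hist2h3c1 and Hist2h3c2) and the chaperone gene Dnajb12 made up the rest, and the windows of the clustered genes share summits. Outside the stretches, Pfkl, the liver type of phosphofructokinase, led with 1, 1 and 1 summits at E11.5 and 5, 6 and 6 in EPDC (log2 fold change 2.27 ± 0.25, adjusted p = 3.05e-07). Its promoter still showed the pattern of the stretches, with ranks of 95.8, 94.7 and 97.05 in EPDC and no call in any epicardial list. Sfi1 and Zfp60, also among these gains, showed it too, whereas the promoters of Aire and Ubxn2b were called in every list. Lying outside the stretches thus does not free a gene of this difference between the lists. Tnfsf10, the death ligand TRAIL, had 0, 1 and 2 summits at E11.5 and 3, 5 and 3 in EPDC (log2 fold change 1.96 ± 0.38, adjusted p = 0.00117), a call lost with the same number of top summits (adjusted p = 0.0781). The largest losses were at genes with few summits. Sptlc3, a subunit of an enzyme that starts sphingolipid synthesis, had 3, 6 and 7 summits at E11.5 and none in the EPDC or E17.5 lists. Mmrn1, a multimerin of platelets and endothelium, had 3, 5 and 4 at E11.5 and none in EPDC, and Pigr, the epithelial transporter of polymeric antibodies, had 4, 6 and 4 against 0, 0 and 2. Abca13, Tbc1d21, Prr23a1, Slc25a18, Bpifb4, Dppa1 and Bpifb3 made up the rest of the 10 largest losses. The windows of Abca13 and Slc25a18 touch a stretch, and Prr23a1 lost its call with the same number of top summits (adjusted p = 0.0905).

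The counts of gene lists that follow stand against 5.84% of all genes with more summits and 5.84% with fewer, and counts of promoter rank against 5.32% higher and 8.39% lower. Of 27 genes of epicardial and mesothelial identity tested, 6 had fewer summits in EPDC and 1 had more, with a median log2 fold change of -0.09 against 0.0043 over all genes tested. Under the alternatives and the removal of 1 list at a time this median ran from -0.17 to 0.01. Rspo1, a secreted agonist of Wnt signalling, had 11, 14 and 10 summits at E11.5 and 5, 3 and 4 in EPDC (log2 fold change -1.21 ± 0.21, adjusted p = 0.000417), and its window touches a stretch. Bnc1, a zinc finger transcription factor (TF) of mesothelium, had 15, 14 and 15 at E11.5 and 7, 7 and 8 in EPDC (log2 fold change -0.72 ± 0.17, adjusted p = 0.0054), and 13, 17 and 15 at E17.5. The groups do not overlap for either gene, although the Bnc1 call was lost without E11.5 replicate 1 (adjusted p = 0.0623). Bnc2, the related TF gene, and Rspo1 kept the call under every removal of 1 list, although Rspo1 lost it with the same number of top summits (adjusted p = 0.0905), whereas Krt7, Lrrn4 and Dmkn did not, with adjusted p up to 0.0664 for Lrrn4 without E11.5 replicate 1, E11.5 replicate 2 or E13.5 EPDC sample 1 and up to 0.068 for Dmkn without E11.5 replicate 1. Tcf21, a TF of the epicardium and of the fibroblasts it forms, was the 1 gene with more summits, with 5, 5 and 10 at E11.5 and 7, 9 and 11 in EPDC (adjusted p = 0.0404), the groups overlapped, and the call did not hold under every removal of 1 list. Promoter rank was lower for 5 of 22 members and higher for none, and up to 4 ranked higher under other settings. Of the 5, Krt8 and Muc16 kept the call under every removal of 1 list. Besides Upk3b these were the uroplakin gene Upk1b, the keratins Krt7 and Krt8, and the mucin gene Muc16, whose promoter ranked at 80.5, 84.4 and 75.4 at E11.5 and at 14.9, 0 and 0 in EPDC. The Wt1 promoter did not pass the test (95.1, 96.7 and 96.7 at E11.5, 96.8, 94.9 and 92.1 in EPDC, adjusted p = 0.421).

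Few epithelial junction and polarity genes passed the test. Of 33 tested, 3 had fewer summits and none had more, with a median log2 fold change of -0.02. In promoter rank 2 of 32 were higher in EPDC and 2 lower, and under other settings up to 9 were higher and up to 2 lower. Cldn15, ranked higher, and Lsr, ranked lower, kept the call under every removal of 1 list. Tjp1, which encodes the tight junction scaffold ZO-1, had 25, 31 and 34 summits at E11.5 and 11, 10 and 20 in EPDC (log2 fold change -0.93 ± 0.15, adjusted p = 0.000163), with 20, 24 and 24 at E17.5. The desmosomal cadherin gene Dsc2 had 5, 3 and 5 against 2, 1 and 1, and Esrp1, an epithelial splicing regulator, had 9, 9 and 11 against 4, 6 and 4. Dsc2 and Esrp1 lost the call without E11.5 replicate 1 or 3 (adjusted p up to 0.104 and 0.103), and Esrp1 also without E13.5 EPDC sample 2. The promoter of E-cadherin (Cdh1) ranked at 75.2, 69.7 and 73.0 at E11.5 and at 48.9, 57.5 and 70.9 in EPDC, and did not pass the test (adjusted p = 0.161).

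Of 28 genes of fibroblasts and matrix tested, 6 had more summits (Postn, Col3a1, Col5a2, Col1a1, Col6a1 and Fbn1) and none had fewer, with a median log2 fold change of 0.36. Under the alternatives and the removal of 1 list at a time the median stayed between 0.19 and 0.39, and the number with more summits between 3 and 11. Postn had 3, 3 and 3 summits at E11.5 and 6, 6 and 9 in EPDC (log2 fold change 1.31 ± 0.21, adjusted p = 0.000149). Col3a1, the fibrillar collagen III of loose mesenchyme, had 7, 8 and 6 against 9, 15 and 21 (log2 fold change 1.21 ± 0.20, adjusted p = 0.000157), and its neighbour Col5a2 had 7, 9 and 10 against 9, 12 and 19. In these numbers every EPDC list lay above every E11.5 list for Postn and Col3a1, and the E12.5 list was the lowest or tied lowest in EPDC. The Col3a1 and Col5a2 calls were lost with the same number of top summits (adjusted p = 0.0753 and 0.0718). Promoter rank went both ways, with a median difference of -0.83 percentiles against -0.79 over all promoters: 5 of 27 ranked higher (Col1a2, Postn, Fap, Lox and Mfap4) and 2 lower. Dcn, the proteoglycan decorin, fell from 95.2, 96.7 and 95.6 at E11.5 to 83.7, 86.0 and 86.8 in EPDC (adjusted p = 0.00244), and Fbln1, whose window touches a stretch, was the other. The promoter of Col1a2 ranked at 61.3, 61.3 and 66.3 at E11.5 and at 81.1, 86.5 and 85.6 in EPDC (adjusted p = 0.00329). With 1 list left out, 2 to 5 promoters of the list ranked higher and 1 to 4 lower, and only Col1a2, Postn and Dcn kept the call throughout.

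**Figure D3:**
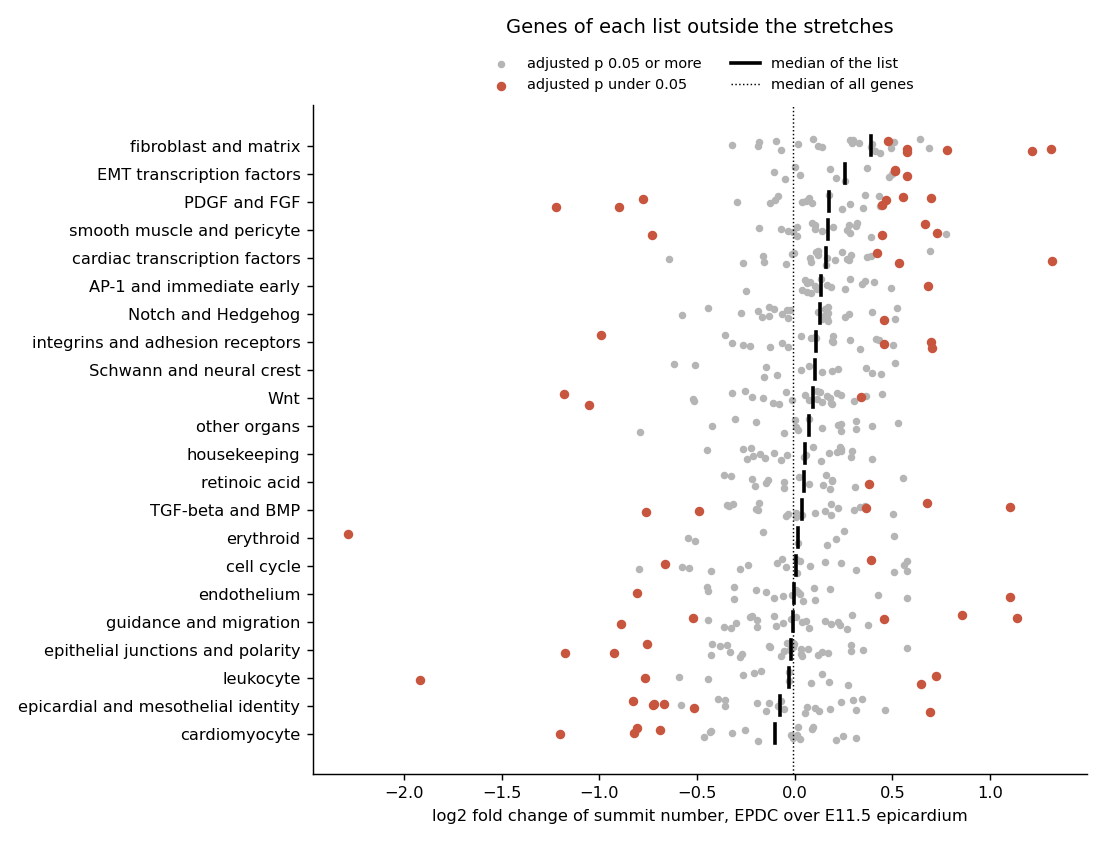
Log2 fold change of summit number, EPDC over E11.5 epicardium (x axis), for the genes of each list away from the stretches (y axis, ordered by median), with 1 point per gene, red at adjusted p under 0.05 and grey otherwise, a black bar at the median of the list and a dotted line at the median of all genes. Among the lists plotted, fibroblast and matrix genes have the highest median (0.39) and cardiomyocyte genes the lowest (-0.10), away from the stretches and at the main setting.

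Of 13 TFs that drive EMT, 12 had a promoter peak in all 6 lists, as did 13268 of all 20807 genes. Zeb1, a repressor of epithelial genes, had 11, 16 and 13 summits at E11.5 and 14, 17 and 20 in EPDC (log2 fold change 0.58 ± 0.15, adjusted p = 0.0105). Foxc1 and Foxc2 also passed the test, and the list had a median log2 fold change of 0.26. None of these 3 kept the call under every removal of 1 list: adjusted p reached 0.068 for Zeb1 without E11.5 replicate 1 or 3 or E13.5 EPDC sample 1, 0.202 for Foxc1 and 0.224 for Foxc2, which lost it under all 6. The promoters of Twist1 and Twist2 ranked higher in EPDC, with 69.1, 70.1 and 70.7 at E11.5 and 77.8, 85.3 and 87.8 in EPDC for Twist2 (adjusted p = 0.0321, up to 0.128 with 1 list left out). Neither call held under every removal of 1 list. Snai1 and Snai2 had promoter ranks between 94.5 and 98.0 in all 6 lists, with no difference past the test.

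Among TFs of heart development, 3 of 26 had more summits and none had fewer. Tbx20, a T-box factor of heart mesenchyme and myocardium, had 10, 11 and 8 summits at E11.5, 14, 24 and 27 in EPDC and 5, 10 and 6 at E17.5 (log2 fold change 1.32 ± 0.18, adjusted p = 1.1e-05). Its promoter ranked near the top in all 6 lists, at 93.7 to 98.6. Nfia, a nuclear factor I gene in a large locus, had 63, 75 and 67 against 71, 75 and 88 summits (log2 fold change 0.42 ± 0.07, adjusted p = 0.000275). These values overlap before scaling to the list total, and do not after it. Gata6 had 15, 16 and 16 against 19, 16 and 24 and lost the call without E11.5 replicate 2 or 3 (adjusted p up to 0.0698). The Gata4 promoter ranked at 91.7, 91.0 and 91.6 at E11.5 and at 76.8, 82.1 and 84.6 in EPDC (adjusted p = 0.0331, up to 0.123 with 1 list left out).

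Mural cell genes showed a mixed picture, with 4 of 25 having more summits, 1 having fewer and a median log2 fold change of 0.19. Abcc9, a subunit of the potassium channel of pericytes, had 8, 14 and 10 summits at E11.5 and 13, 14 and 18 in EPDC (log2 fold change 0.73 ± 0.16, adjusted p = 0.00412). Cnn1, whose window touches a stretch, Anpep and Pdgfrb also had more. Myh11, the myosin of mature smooth muscle, had 10, 11 and 13 against 6, 4 and 7 (adjusted p = 0.0145). Abcc9 kept the call under every removal of 1 list, but lost it with a -log10 q of at least 5, the same number of top summits or windows of 5 kb (adjusted p up to 0.35). Myh11 reached adjusted p = 0.107 without E11.5 replicate 1 or 3 or E13.5 EPDC sample 1, and Anpep reached 0.059 without E11.5 replicate 1 or E13.5 EPDC sample 1. Cnn1 reached 0.186 without E11.5 replicate 2 or 3, E12.5 EPDC or E13.5 EPDC sample 1.

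**Figure D4:**
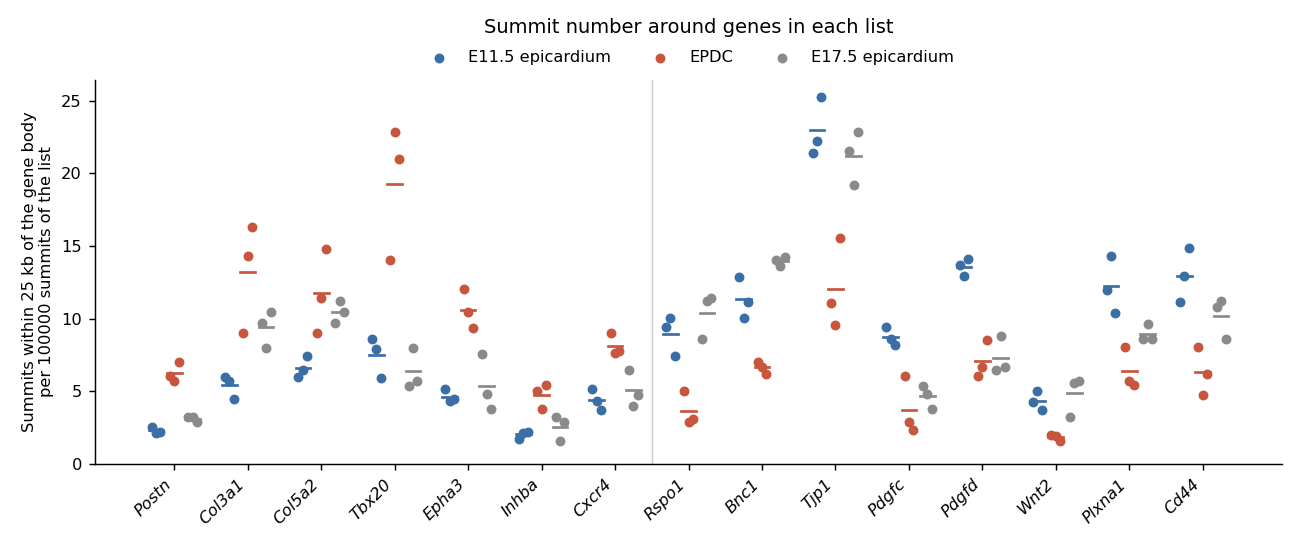
Summits within 25 kb of the gene body per 100000 summits of the list (y axis) for named genes (x axis), with 1 point per peak list, blue for E11.5 epicardium, red for EPDC and grey for E17.5 epicardium, and short lines at the mean of each group. On the left stand genes with more summits in EPDC, and on the right genes with fewer, where the E17.5 lists of Bnc1, Rspo1 and Tjp1 lie near the E11.5 lists and those of Pdgfc, Pdgfd and Plxna1 lie nearer to EPDC.

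Among PDGF and FGF signalling genes 4 of 23 had more summits and 3 had fewer. The ligand genes that passed the test had fewer. Pdgfc, a ligand of the PDGF alpha receptor, had 11, 12 and 11 summits at E11.5 and 6, 3 and 3 in EPDC (log2 fold change -1.22 ± 0.24, adjusted p = 0.00148). Pdgfd, a ligand of the beta receptor, had 16, 18 and 19 against 6, 7 and 11 (log2 fold change -0.90 ± 0.16, adjusted p = 0.000525). Both kept the call under every removal of 1 list, but Pdgfc lost it with a -log10 q of at least 5 or the same number of top summits (adjusted p up to 0.242). The receptor genes Pdgfrb, with 20, 22 and 22 against 24, 21 and 30 (adjusted p = 0.0183), and Fgfr1, with 11, 13 and 15 against 14, 14 and 18 (adjusted p = 0.0392), had more, as did the inhibitors Spry1 and Spry2. Fgfr3 had fewer, with 16, 13 and 13 against 6, 7 and 7, and reached adjusted p = 0.0837 without E11.5 replicate 1. None of the 4 genes with more summits held under every removal of 1 list, and Spry1 reached 0.17.

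Of 31 Wnt pathway genes, 5 had fewer summits and 1, the receptor Ror2, had more, a call that did not hold under every removal of 1 list. The ligand gene Wnt2 had 5, 7 and 5 summits at E11.5 and 2, 2 and 2 in EPDC (log2 fold change -1.05 ± 0.23, adjusted p = 0.00409), and the secreted inhibitor gene Sfrp5 had 6, 8 and 7 against 2, 3 and 2 (log2 fold change -1.18 ± 0.23, adjusted p = 0.00142). Rspo1, described above, was the third with a call under every removal of 1 list. The sign for Wnt2 turned when windows of 5 kb were used (log2 fold change 0.24, adjusted p = 0.59), so that the difference lay farther than 5 kb from the gene. Wnt2b and the feedback inhibitor Axin2 were the others, and Axin2 had 15, 19 and 20 against 5, 10 and 13 and reached adjusted p = 0.0621 without E11.5 replicate 3. With windows of 5 kb the Sfrp5 call was lost too (adjusted p = 0.222). The windows of 3 of these 5 genes touch a stretch, and the median log2 fold change of the list was 0.05 with such genes and 0.09 without.

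In the TGF-beta and BMP pathway 3 of 27 genes had more summits and 3 had fewer, and both counts ran from 1 to 4 with 1 list left out. The activin subunit gene Inhba had 2, 3 and 3 summits at E11.5 and 5, 4 and 7 in EPDC (log2 fold change 1.10 ± 0.23, adjusted p = 0.00224). Bmpr1b, a type I BMP receptor, had 26, 29 and 30 against 12, 6 and 18 (log2 fold change -1.09 ± 0.20, adjusted p = 0.000681), and its window touches a stretch. The ligand gene Bmp5 lost promoter rank, from 75.2, 72.1 and 61.4 to 32.5, 23.0 and 15.9 (adjusted p = 0.00247), and ranked at 23.9, 27.4 and 43.6 at E17.5. These 3 calls held under every removal of 1 list, the other summit calls of the pathway did not, and Inhba lost its call with the same number of top summits (adjusted p = 0.0507). For retinoic acid, the promoter of Aldh1a3, an enzyme that makes it, ranked higher in EPDC (80.9, 84.4 and 81.7 at E11.5 against 94.8, 95.8 and 96.4, adjusted p = 0.00161). The promoter of Aldh1a2, the main such enzyme of the epicardium, ranked at 93.6, 90.6 and 92.5 against 83.2, 84.0 and 89.9 and did not pass the test (adjusted p = 0.0925). Of 18 retinoic acid genes 1, the receptor gene Rara, had more summits, and none had fewer. The Rara call was lost without E11.5 replicate 1 or 2 or E13.5 EPDC sample 1 (adjusted p up to 0.15) and under 5 of 9 other settings.

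Of 29 genes of guidance and migration 3 had more summits and 3 had fewer. Epha3, an ephrin receptor of cushion mesenchyme, had 6 summits in each E11.5 list, 12, 11 and 12 in EPDC and 7, 6 and 4 at E17.5 (log2 fold change 1.14 ± 0.18, adjusted p = 0.000111). Cxcr4, the receptor of the chemokine CXCL12, had 6, 6 and 5 against 9, 8 and 10 (log2 fold change 0.86 ± 0.19, adjusted p = 0.00418). Plxna1, a semaphorin receptor, had 14, 20 and 14 against 8, 6 and 7 (log2 fold change -0.89 ± 0.18, adjusted p = 0.00179). The groups do not overlap at these 3 loci, but the Plxna1 call was lost with windows of 5 kb (adjusted p = 0.168) and the Cxcr4 call when the replicate number was added as a block (adjusted p = 0.0731). Among integrins and adhesion receptors 4 of 24 had more summits and 1 had fewer, and the 4 ran from 2 to 6 with 1 list left out and from 1 to 8 under other settings. Itga2 and Cd44 held under every removal of 1 list. Itga2, a collagen-binding integrin, had 8, 10 and 9 against 11, 13 and 14 (log2 fold change 0.70 ± 0.16, adjusted p = 0.00477, or 0.0558 with this block), and Cd44, the hyaluronan receptor, had 13, 18 and 20 against 8, 5 and 8 (log2 fold change -0.99 ± 0.18, adjusted p = 0.000681). In the remaining pathway lists 1 of 26 Notch and Hedgehog genes (Notch2) and 1 of 19 AP-1 and immediate early genes (Maff) had more summits and none had fewer, and both calls were lost with 1 list left out (adjusted p up to 0.0952 and 0.108).

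Regions were then compared directly around these genes. Merging the intervals of the 6 lists gave 141670 regions, of which 6682 (4.72%) were called in all 3 EPDC lists and in no E11.5 list, and 12257 (8.65%) the other way round. Within 25 kb of Epha3, 6 of 13 regions were called in EPDC alone. The strongest of them, chr16:63779793-63780622, lies 84.0 kb downstream of the TSS, inside the gene, had a mean rank percentile of 60.3 in EPDC, and was called in no E17.5 list. Around Postn 2 of 8 regions were called in EPDC alone, the promoter itself and chr3:54391373-54392976, 31.1 kb downstream. Around Tbx20, 5 of 21 regions were called in all 6 lists, 15 in some lists of either group, and 1 (chr9:24739678-24740050) in EPDC alone. On the side of E11.5, Bnc1 had 4 of 14 regions called at E11.5 alone, from -3.9 to 41.3 kb from the TSS, of which 3 were called again at E17.5. Rspo1 had 4 of 8 such regions, 2 of them called again. Tjp1 had 5 of 32, the strongest at chr7:65546739-65547782 (-19.5 kb from the TSS), and 1 was called again. Pdgfc and Pdgfd each had 4 such regions, 1 of them called again at each gene, and Bmpr1b had 6, of which 4 were. The share called again at E17.5 over all regions called at E11.5 alone was not computed.

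Markers of other cell types were read as a check of the sort. The promoters of Pecam1, which encodes CD31, and of the endothelial cadherin Cdh5 were called in none of the 6 lists, but of the 9 endothelial markers 4 had a promoter peak in all 6 lists and 4 in none. Among the 20 genes of the longer endothelial list 12 had one in all 6 lists and 6 in none. All 5 leukocyte markers (Ptprc among them) lacked a promoter peak. The Pdpn promoter ranked at 89.1, 88.6 and 89.2 at E11.5 and at 84.8, 83.7 and 84.9 in EPDC, with no overlap, and did not pass the test (-4.5 ± 1.6 percentiles, adjusted p = 0.108); ranked by fold enrichment the sign turned (13.3 percentiles, adjusted p = 0.0214). Of the 8 mesenchyme markers 4 had more summits in EPDC and none had fewer, and their promoters were called for 6 to 7 at E11.5 and for 8 in every EPDC list. Of the 8 epicardial markers 1 had more and 1 had fewer, and 7 promoters were called in every list. In promoter rank 2 of 8 mesenchyme markers were higher in EPDC, and of 7 epicardial markers 2 were lower and none was higher.

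Cardiomyocyte genes that passed a test were lower in EPDC than at E11.5. Of 22 tested, 5 had fewer summits and none had more (median log2 fold change -0.22, or -0.10 away from the stretches). The 5 ran from 2 to 7 with 1 list left out and from 1 to 7 under other settings, and Myh7 and Nppa held under every removal of 1 list. In promoter rank 8 of 19 ranked lower and none higher. Under the other settings between 4 and 7 ranked lower and up to 3 ranked higher. Promoters of the 22 listed genes were called for 17 to 19 in the E11.5 lists and for 11 to 13 in the EPDC lists. Nppa, atrial natriuretic peptide, had 4, 5 and 4 summits at E11.5 and 1, 1 and 2 in EPDC (log2 fold change -1.20 ± 0.25, adjusted p = 0.00239), and Nppb, its ventricular relative, fell in promoter rank from 77.4, 79.0 and 75.8 to 37.9, 48.8 and 38.1 (adjusted p = 0.00123). The ventricular myosin gene Myh7 ranked at 27.5, 19.1 and 22.5 at E11.5 and had no promoter peak in EPDC, although its window touches a stretch, and Csrp3, a Z-disc protein, ranked at 47.0, 48.3 and 30.2 against 0. The troponin gene Tnnt2 kept a promoter peak in all lists (83.0, 87.4 and 85.2 against 74.6, 77.2 and 80.9). With the same number of top summits or a -log10 q of at least 5 the Nppa call was lost (adjusted p up to 0.125), and with the same number of top intervals those of the Myh7 and Csrp3 promoters were (0.557 and 0.0711). The call on Myh7 summit number was also lost with the same number of top summits (adjusted p = 0.78). The part that these genes take in the losses of EPDC at other loci was not tested. In bulk samples, fewer cells of a type and less open chromatin per cell cannot be told apart.

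Genes of other cell types were read in the same way. Of 20 endothelial genes 1 (Emcn) had more summits and 1 (Esam) had fewer, of 16 leukocyte genes 3 had more and 2 fewer, of 10 erythroid genes 1 (Rhag) had fewer, and of 14 Schwann cell and neural crest genes none passed the test in either direction. With 1 list left out, no endothelial call held throughout (adjusted p up to 0.079 for Emcn, without E11.5 replicate 1, and up to 0.0992 for Esam), and leukocyte genes numbered 1 to 3 with more and 1 to 4 with fewer. Of 17 genes of other organs none passed either. Promoter rank was tested for few of these genes: 3 of 6 leukocyte promoters ranked higher and 2 lower, 1 of 14 endothelial promoters ranked higher and 2 lower, and 2 of 11 promoters of other organs ranked lower. With 1 list left out, 1 to 3 leukocyte promoters ranked higher and 1 to 2 lower. Only Fcgr3, ranked higher, and Cd68, ranked lower, held throughout. Among the leukocyte genes the gain at Fcgr3, an antibody receptor, from 1, 1 and 2 summits to 23, 27 and 20, fell on a stretch. Of 24 housekeeping genes 22 had a promoter peak in all 6 lists, against 13268 of all 20807 genes. Among 25 cell cycle genes, the promoter of Rrm2, a subunit of ribonucleotide reductase, was called in EPDC alone (89.3, 91.5 and 93.0), and it lies in a stretch without any epicardial interval.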

How the data were processed

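The deposited files are narrowPeak lists. Per the study's methods, the authors processed 7 samples of this comparison with an nf-core ATAC-seq workflow on mm10, removing mitochondrial, blacklisted, duplicate and multimapping reads, and called peaks with MACS2 (2.2.9.1). The authors' MACS2 columns give fold enrichment, -log10 p and -log10 q per peak, and a summit position; the fold values serve here only for an alternative rank. The lists carry no reads, so depth is unknown beyond the number of peaks. The members and gene lists were chosen with earlier results of these data known. Promoters and gene bodies follow GENCODE vM21 (mm10). Summit number per 100000 summits of the list (log2, pseudocount 0.5, mean of at least 2 summits) and promoter rank percentile were tested with limma (3.58.1; R 4.3.3), two-sided, with Benjamini-Hochberg adjustment over all genes tested and a threshold of 0.05. SE is the moderated standard error of limma. In simulated data with Poisson spread around the mean summit numbers of this comparison (16785 genes), 59.5% of 4-fold changes were recovered. False calls made up 1.65% of the calls. The spread of the real lists was not simulated, so these rates need not hold for them. The labels name the samples as independent pools of hearts, and p-values measure the spread between these pools. In each test the 2 E13.5 lists and the E12.5 list form 1 group.

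Named are, in each direction, the 10 genes with the largest fold change of summit number whose groups do not overlap, the 10 promoters with the highest rank among those called in 1 group alone, the 5 largest rank differences among promoters called in all 6 lists, up to 4 members of each gene list, and Pdpn, Pecam1 and Wt1. Genes outside the stretches, promoters called again at E17.5, and members that complete a short count were named after their values were seen. Predicted genes were passed over. Alternatives tried were a -log10 q of at least 5, equal numbers of peaks, each interval once, other windows, pseudocount and filter, equal medians, another rank basis, a replicate block, and each list left out. Chosen after seeing the data were leaving out the stretches and keeping promoters called at E17.5. The result for 1 gene is not reported here.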

Additional observations from a re-analysis of the deposited data

Results flagged for a closer look

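Peaks outside the chromosomes compared were a signal in data that no comparison used. The EPDC lists held summits on the mitochondrial chromosome, with 47 from E12.5 and 45 and 25 from the E13.5 pair, and summits on unplaced scaffolds, with 221 from E12.5 and 218 and 227 from the E13.5 pair. Every list from E11.5 and E17.5 held 0 of either kind. The authors' methods name a filter on mitochondrial reads. Whether these peaks and the 198 stretches of the autosomes that hold peaks in EPDC alone have the same origin was not tested.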

How the results depend on the processing

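The counts of changed genes moved by over 1.5 times with several settings, and the cause was not tested. Outside the stretches, 155 promoters were called in EPDC alone, 576 genes had more summits and 472 promoters ranked higher. Kept to promoters called at E17.5, 28 were called in EPDC alone, 105 at E11.5 alone, and 373 ranked higher. With the same number of top intervals, promoters called only in E11.5 epicardium numbered 110, and 1399 ranked higher, and ranks by fold enrichment gave 1340 higher and 671 lower. Windows of 5 kb gave 531 genes with more summits and 615 with fewer. With 1 list left out at a time, promoters called at E11.5 alone ran from 180 to 273, genes with more summits from 583 to 1236 and with fewer from 507 to 1489, and promoters ranked higher from 522 to 740 and lower from 386 to 2222. The difference in promoters called per library ran from -27.3 to 156, and was 306 with the same number of top intervals. A pseudocount of 2 gave 1192 genes with more summits and 787 with fewer. For the named genes, a change of setting kept the direction and the side of the threshold in 627 values of summit number and lost the call in 107, and in 154 and 40 values of promoter rank. Leaving out 1 list kept 450 and lost 88 for summit number, and kept 164 and lost 81 for promoter rank.

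The replicate numbers do not pair the samples (correlations of same-numbered deviations -0.0063, 0.0108 and 0.0554). With a replicate block, 521 genes had more and 382 fewer summits, and 521 promoters ranked higher and 334 lower. Signs turned, without passing the threshold unless stated, for Wnt2 and Ccne1 with 5 kb windows (0.24 each), Pdpn promoter rank by fold enrichment (13.3 percentiles, adjusted p = 0.0214), Wt1 promoter rank by fold enrichment (6.28), Pecam1 summit number with -log10 q of at least 5 (-0.093) and with the block (-0.014), and Wt1 summit number with the block (-0.046). With 1 list left out, Pecam1 summit number ran from -0.014 to 0.092 and Wt1 summit number from -0.022 to 0.17.

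Lists of called peaks cannot separate closed chromatin from low coverage, 3 lists per group leave an exact test no p below 0.1, and age, gate, cell mixture and any difference in processing between the lists cannot be told apart. Summit numbers of neighbouring or overlapping genes share peaks.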
